A study of Homo sapiens with 5 samples.

Results

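The comparison described here sets ribosome footprint counts of A549 cells carrying hairpins against RBMS1 beside those of A549 cells carrying a control hairpin. A549 is an established human lung adenocarcinoma line. The knockdown group holds 2 libraries of stably depleted cells, named sh1088 and sh1196 after their short hairpin RNAs, and the sh control is 1 library. The series has 5 libraries, of which the control of the overexpression arm, with the name pCDH, serves below only as a second reference. No treatment other than the constructs is named, and the labels do not say whether a line is 1 clone or a pool, nor whether libraries came from separate cultures. Per the labels, cells received cycloheximide, which holds ribosomes on mRNA, at 100 ug/mL for 15 min, and lysates were digested with RNase I for 5 min. The design text calls the libraries ribosome footprints, while the label of each library names total RNA, so "footprint" follows the design text. Of 58929 genes in the files, 19932 are nuclear protein-coding, and 9723 of these had a mean of at least 5 CPM (read counts relative to library size, scaled by edgeR's TMM factors) over the 3 libraries. These 9723 genes are the members described. Just below that limit lay ZNF79 and ARHGEF19, both at 4.99 CPM, and just above it TIGD6 and CHMP6, both at 5.01.

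RBMS1 belongs to a small family of RNA-binding proteins that bind AU-rich sequence, with AUAUA as a preferred core, mostly in 3' untranslated regions (3'UTRs) of mRNA. Proteins of this kind can change how long an mRNA lasts or how often it is translated, and a footprint count carries both, since it follows mRNA level as well as ribosomes per mRNA. In lung cancer cells RBMS1 has been linked to SLC7A11, the transporter that imports cystine for glutathione synthesis and so protects cells from ferroptosis, a death by lipid peroxidation. The question of the comparison is which genes carry more or fewer footprints when RBMS1 is depleted.

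RBMS1 sites are searched for in 3'UTRs, so the densest 30-base stretch of ATATA (the DNA letters of AUAUA, in capitals, overlaps counted, transcript strand) is shown for genes discussed below, from 1 GENCODE release 29 transcript a gene. The first 8 genes lay lower in both hairpin libraries and the last 3 higher, and each set holds genes with many matches and genes with few.
SLC7A11: ATATATATATATATATATATATAgtggaac
STYX: gagtactctgtgtgtATATATATATATATA
ZMAT3: ATATATATATATATAgATATAttttccagc
SLC16A7: aaataaaatattttcctagaaATATATATA
PLCXD3: ATATAcaATATAcaaacatatgcccattcc
CREBL2: ATATATAcatttctatttttataatccata
PRSS16: ATATAagtggatgattattctcattgtaaa
RBMS1: tacacagttatttctactttagtacATATA
USP49: aaaacaatgactaatgctgggcaacATATA
EBI3: ccccatctctaaaaaattaATATAaATATA
HBEGF: ATATAtttattttattctatgtatgttaat
The whole SLC7A11 3'UTR holds 54 matches in 7859 nt and that of STYX 19 in 3892 nt, while PRSS16 and RBMS1 hold 1 each, in 1156 and 2621 nt. Of the genes that lay higher, USP49 holds 10 in 6637 nt and EBI3 2 in 443 nt. A match is a run of letters and does not show that RBMS1 binds there.

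The libraries differed in make-up. Totals were 10327747 to 11739398 expected counts in the 3 libraries of the comparison, but nuclear protein-coding genes took 37.7% of them in the control, 42.2% in sh1088 and 66.0% in the other hairpin library. The median member had 193, 221 and 307 counts in the same order. The pCDH control, the second reference, was unlike the sh control in make-up, with 66.3% nuclear protein-coding counts and a median of 416 counts per member. Its estimated mean fragment was 52.3 nt, against 46.0 nt in the sh control. The part of these differences in the comparisons with the pCDH control was not tested. The A549 markers were present, with 10 of 10 measured and summed levels of 9460, 8776 and 7713 CPM. ALDH1A1 alone held 5156, 5268 and 4889 CPM of this. Of the 10 markers 5 lay lower in both hairpin libraries and 0 higher. AKR1C1 was at 291, 219 and 52.4 CPM, and EPCAM, with opposite signs, at 4.70, 15.0 and 2.29. CDKN2A, known to be deleted in A549, had 0, 4 and 3 counts. Of 10 fibroblast markers 1 was measured, THY1, and the list summed to 4.48, 10.2 and 37.8 CPM, with DCN, POSTN and FAP at 0 in these libraries. Of 11 immune markers 2 were measured, with a sum of 25.3, 32.3 and 62.8 CPM and PTPRC, the pan-leukocyte marker, at 0. Of 7 neural or HEK cell markers 2 were measured, with a sum of 58.9, 63.2 and 68.6 CPM. Endothelial markers summed to under 1 CPM in each library and erythroid markers to 0. The part of these marker genes in the results below was not tested.

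RBMS1 itself (ENSG00000153250.20, chromosome 2, 160272151 to 160493794, minus strand, GRCh38 by GENCODE release 29) had 249 counts in the control and 176 and 173 in the hairpin libraries, sh1088 before sh1196, an order kept below. That is 27.2, 16.5 and 12.0 CPM, so both hairpin libraries lay below the control. The log2 ratio was -0.72 (95% counting interval -1.01 to -0.44) for sh1088 and -1.17 (-1.47 to -0.90) for sh1196, and edgeR gave -0.93 (SE 0.45) with an edgeR adjusted p = 0.828. In TPM, which divides by gene length, rescaled to the nuclear protein-coding total (rescaled TPM below), the log2 ratios were 0.46 and -0.06. So the targeted gene was lower by counts and not lower in sh1088 by length-scaled values. RBMS2, its close relative, stood at 44.9, 28.5 and 16.1 CPM, also lower in both libraries, and its edgeR log2 fold change was -1.01 (SE 0.49).

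No gene passed the test across the table. edgeR's quasi-likelihood test with Benjamini-Hochberg adjustment called 0 of 14913 genes (0%), and the smallest adjusted p of a member was 0.129, for the phosphatase gene PTP4A1. At an unadjusted p under 0.05 edgeR placed 422 of the 9723 members, 205 higher and 217 lower, and 876 of all 14913 genes tested. With no difference at all, a limit of 0.05 would pass a share of about that size. DESeq2 called 13 of 17669 genes (0.0736%). The 4 members among those were EBI3, PTP4A1, INO80B and AC139530.3, of which the last 3 overlap other genes on the same strand and so have uncertain counts. Such overlap, by whole gene spans, held for 3349 of the 9723 members. RBMS1, RBMS2, HSP90B1, CALR and ASNS are among them. How far it reaches their counts was not tested. On data simulated for this comparison edgeR called 18.9% of genes changed 4-fold and 60.6% of genes changed 8-fold. The values below are therefore levels and ratios in these libraries, described as higher or lower and not as established changes. Since both ratios of a gene share 1 control library, its own deviations enter both.

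Read with that limit, 3517 members (36.2%) lay higher in both hairpin libraries than in the sh control and 3372 (34.7%) lower, while 2834 had opposite signs. The split rests on the scaling: with plain library sizes the median of the members moved from 0.05 to 0.60 on the log2 scale, and 6138 lay higher and 1067 lower. Ratios here are relative to TMM scaling, by which the median gene stays near 0. Ratios of 2-fold or more above the control were seen for 308 members in sh1088 (3.17%), and as far below it for 236 (2.43%). In sh1196 the same counts were 1015 (10.4%) and 1039 (10.7%). The spread of the log2 ratios was accordingly wider in sh1196 (SD 0.89 over members) than in sh1088 (0.55), about medians of 0.06 and -0.02. In the authors' deposited table, 263 of 15560 genes with an adjusted p had one under 0.05 and were higher (1.69%), and 276 were lower (1.77%). Of these, 166 and 181 were members, and all 347 had the same sign in both hairpin libraries. That last count was close to fixed in advance, because a gene called from these libraries against 1 control seldom has hairpins of opposite sign. The authors' deposited log2 fold changes differ from DESeq2 run here by at most 0.0288, whereas their standard errors are smaller, with a median of 0.400 over members against 0.648. The source of that difference was not tested.

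**Figure D1:**
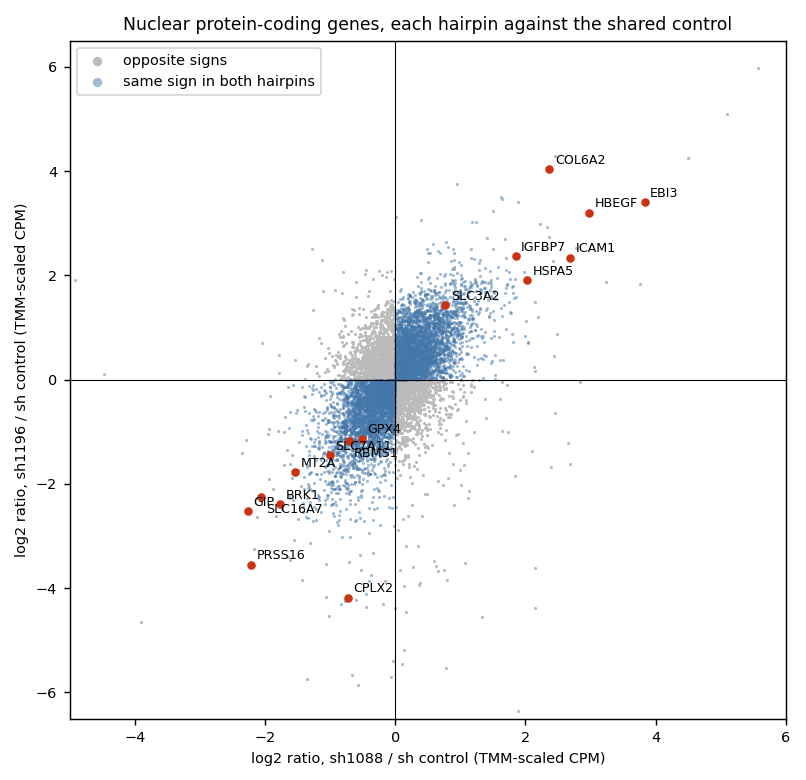
Log2 ratio to the sh control in sh1088 (x axis) and sh1196 (y axis) for the 9723 members, from TMM-scaled CPM; blue points have the same sign in both libraries, grey points opposite signs, and red points are named genes. EBI3 at 3.83 and 3.41 and PRSS16 at -2.21 and -3.55 lie toward the corners, RBMS1 and SLC7A11 inside the lower left cloud, and 5 genes fall outside the axes.

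The genes first ranked here are the 15 in each direction whose smaller hairpin ratio was largest, among members that overlap no other gene on the same strand. EBI3, a subunit shared by heterodimeric cytokines (chromosome 19, 4229498 to 4237531), had 19 counts in the control against 340 and 342, which is 2.08, 31.9 and 23.7 CPM. Both hairpin libraries were far above the control, and edgeR put the log2 fold change at 3.73 (SE 0.59) with an edgeR adjusted p = 0.305. HBEGF, a ligand of the EGF receptor, had 7, 77 and 122 counts, or 0.765, 7.22 and 8.46 CPM. ICAM1, the adhesion molecule that leukocyte integrins bind, was at 3.17, 21.4 and 16.7 CPM. SLCO2B1, an organic anion transporter, was at 1.31, 6.75 and 11.6 CPM. For these genes the control stood alone at the low end, which the ranking requires, on 7 to 29 counts.

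COL6A2, a chain of collagen VI, was higher with unequal hairpins, at 1.31 CPM in the control, 7.50 in sh1088 and 24.2 in sh1196. IGFBP7, a secreted binding protein of the insulin-like growth factor family, was at 26.8, 96.8 and 139 CPM. ANGPTL4, a secreted inhibitor of lipoprotein lipase, was at 3.496, 11.8 and 18.3 CPM. For each of these secreted products sh1196 exceeded sh1088. Proteins of the nucleus and of RNA modification were in the group too. MCM10, which helps open replication origins, was at 2.84, 9.56 and 19.4 CPM, and NFRKB, a subunit of the INO80 chromatin remodeler, at 2.51, 9.47 and 10.1. ALKBH8, which modifies wobble uridines of tRNA, was at 2.29, 8.34 and 8.25 CPM. The others were UBXN11 (1.86, 10.0 and 15.3 CPM), the deubiquitinase USP49 (3.17, 11.2 and 12.6), the cytosolic glycosidase ENGASE (3.06, 10.7 and 13.3) and the ubiquitin ligase TRIM3 (2.403, 8.34 and 8.87). Apart from HSPA5, described with its group, and IGFBP7, the genes of this set were low in the control: 13 of 15 had under 5 CPM there. Genes this far above the control can reach the mean of 5 CPM through the hairpin libraries alone.

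On the lower side the genes were better covered in the control, with 95 to 20384 counts. The member rule largely fixes this contrast, since a gene far below the control reaches the CPM limit mainly through the control library. PRSS16, a serine protease best known from the thymus (chromosome 6, 27247701 to 27256624), had 775 counts in the control against 194 and 102, or 84.7, 18.2 and 7.07 CPM. edgeR put it at -2.75 on the log2 scale (SE 0.58) with an edgeR adjusted p = 0.621, and both hairpin libraries lay far below the control. SLC16A7, a carrier of lactate and pyruvate, was at 29.5, 6.94 and 6.10 CPM. GIP, an incretin hormone, was at 12.3, 2.44 and 2.01 CPM, and PLCXD3, of the phospholipase C family, at 12.5, 2.72 and 1.87. In these 3 genes the hairpin libraries lay close together, and the control stood far above them, which the ranking selects for.
BRK1, the small subunit of the WAVE complex that drives actin branching, was at 60.0, 17.4 and 11.3 CPM. STYX, a phosphatase-like protein without catalytic activity, was at 63.6, 20.7 and 13.0 CPM. USB1, the exonuclease that trims U6 RNA, was at 276, 103 and 50.5 CPM, and COMMD6, a COMMD protein, at 155, 57.8 and 26.5. MT2A, a metallothionein that binds zinc and copper, was the most abundant of the set, at 2227, 767 and 648 CPM. ZMAT3, an RNA-binding target of p53, was at 31.5, 10.3 and 11.4 CPM. CHAC1, which degrades glutathione and is a target of the stress factor ATF4, was at 26.2, 8.62 and 7.001 CPM. The remaining members of the set, CREBL2, C5orf51, CPT1C and FAM167A, had control levels of 48.9, 95.9, 10.4 and 10.49 CPM and edgeR log2 fold changes of -1.91, -1.90, -1.66 and -1.72.

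**Figure D2:**
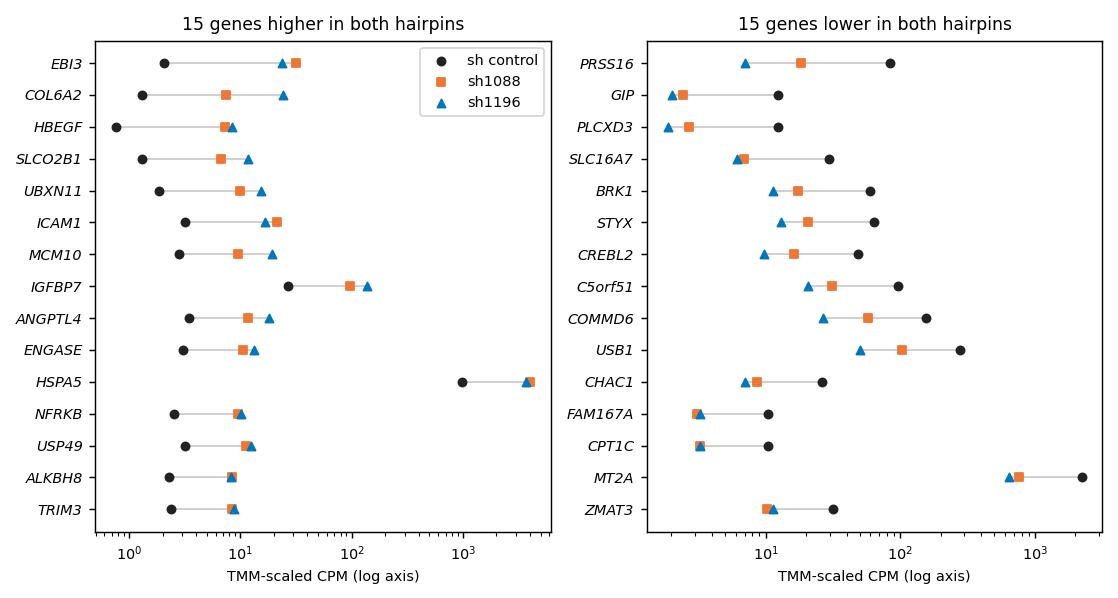
TMM-scaled CPM (log axis) in the sh control (black circles), sh1088 (orange squares) and sh1196 (blue triangles) for the 15 genes in each direction with the largest smaller hairpin ratio, 1 library a point and no error bars. The control stands apart from both hairpin libraries in every gene drawn, which the ranking requires, from 0.765 CPM for HBEGF to 2227 CPM for MT2A.

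Against the second reference, the pCDH control, the picture of these 30 genes changed. Of the 15 higher genes 8 were also higher in both hairpin libraries than in the pCDH control, 4 were lower in both and 3 had opposite signs. Of the 15 lower genes 5 stayed lower, 8 were higher and 2 had opposite signs. EBI3 (log2 ratios 3.78 and 3.36), ICAM1 (2.50 and 2.15), SLCO2B1 (2.396 and 3.18) and PLCXD3 (-1.80 and -2.30) lay on the same side of both controls. PRSS16 (2.77 and 1.43), MT2A (2.74 and 2.50) and COMMD6 (3.07 and 1.95) lay above the pCDH control and below the sh control. Over the members, 1409 of the 3517 higher genes were also higher in both against the pCDH control and 1457 were lower in both. Of the 3372 lower genes, 1178 were lower and 1540 higher. By the same rule with the pCDH control alone, 3964 of 10240 genes lay higher in both hairpin libraries and 3949 lower. The share of higher genes that stayed higher was thus near that background, and the share of lower genes that stayed lower was below it. Counts of list members relative to the pCDH control, given below, have the same background.

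A ranking by the smallest of the 4 ratios, chosen after values were seen, adds genes that lay on the same side of both controls. F2RL2, a thrombin receptor cofactor, was at 10.9, 50.4 and 25.4 CPM. CA8, a carbonic anhydrase relative, was at 9.83, 25.3 and 36.4 CPM. TMEM50B, a membrane protein of the secretory pathway, was at 12.5, 28.5 and 28.4 CPM. These 3 were also at least 2-fold above the pCDH control in both hairpin libraries, with F2RL2 at 2.05 and 1.06, CA8 at 1.48 and 2.01, and TMEM50B at 1.88 and 1.88. On the lower side SOX9, a transcription factor of airway and gut progenitors, was at 28.4, 12.38 and 11.4 CPM, and -2.14 and -2.26 against the pCDH control. IRS2, an adaptor of the insulin receptor, was at 37.4, 18.5 and 10.7 CPM, ELL2, an elongation factor of RNA polymerase II, at 36.3, 16.4 and 12.3, and SCNN1A, a subunit of the epithelial sodium channel, at 21.5, 10.6 and 8.66. ALKBH5, an RNA demethylase, was at 126, 65.7 and 39.2 CPM. In each of these the sh control was the highest of the libraries given, which the ranking requires.

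The cystine transporter and its partner chain lay on opposite sides of the control. SLC7A11 (ENSG00000151012.13, chromosome 4, 138164097 to 138242349) had 6325 counts in the control against 3681 and 3639, or 691, 345 and 252 CPM. SLC3A2, the heavy chain that carries SLC7A11 to the membrane, went the other way at 409, 698 and 1101 CPM. GPX4, the selenoenzyme that reduces lipid peroxides, was at 157, 110 and 71.5 CPM. edgeR gave log2 fold changes of -1.21 (SE 0.54), 1.14 (SE 0.65) and -0.79 (SE 0.50), each with an edgeR adjusted p of 0.828. By rescaled TPM SLC7A11 stood at -0.72 in sh1088 and -0.06 in sh1196, and against the pCDH control at 0.32 and -0.13. SLC3A2 stood at 0.09 and 0.85 by rescaled TPM, and against the pCDH control it lay lower, at -0.73 and -0.07. GPX4 was at -0.32 and -0.64 by rescaled TPM, and above the pCDH control, at 1.58 and 0.96. The directions of these 3 genes therefore depend on which control is used. The wider list of ferroptosis defence genes had 10 of 19 measured members higher in both hairpin libraries and 7 lower, with a median log2 fold change of 0.22 against 0.05 over all members. Among them MBOAT1, a phospholipid acyltransferase, was at 4.04, 11.2 and 15.1 CPM, and PRDX6, a peroxiredoxin, at 431, 365 and 281.

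Proteins that fold others in the endoplasmic reticulum (ER) lay well above the control in both hairpin libraries, to a like degree. Of 24 genes, all measured, 18 lay higher in both libraries and 3 lower, where 36.2% and 34.7% of all members did, and 12 were at least 2-fold higher in each library. The list median was 0.98 by edgeR, 0.96 in sh1088 and 1.00 in sh1196, against 0.05, -0.02 and 0.06 over all members. HSPA5 (BiP), the central ER chaperone (chromosome 9, 125234853 to 125241330), had 9083 counts in the control against 43107 and 53696, or 992, 4041 and 3722 CPM. edgeR put it at 1.97 on the log2 scale (SE 0.79) with an edgeR adjusted p = 0.828, and it was also higher than in the pCDH control, at 2.53 and 2.41. HSP90B1, the ER member of the HSP90 family, was at 576, 1504 and 1952 CPM. CRELD2, a secreted ER stress protein, was at 20.8, 67.0 and 66.1 CPM, and MANF, another such protein, at 60.7, 177 and 178. The lectin chaperone CALR was at 272, 676 and 862 CPM, and the disulfide isomerases PDIA4 and P4HB at 220, 522 and 711 and at 384, 685 and 912. The control was lowest in all of these.

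A few members of the list lay lower. XBP1, whose spliced form is a transcription factor of the unfolded protein response, was at 232, 157 and 78.5 CPM. SERP1, which stabilises membrane proteins, was at 226, 210 and 72.1 CPM, and DNAJB9, a cochaperone of BiP, at 55.9, 53.5 and 31.9. These 3 were the list members lower in both libraries. Against the pCDH control the list median was 0.22 in sh1088 and 0.32 in sh1196, with 14 higher and 6 lower in both, and CALR and P4HB lay below that control (CALR at -1.43 and -1.08).

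The ER stress response element, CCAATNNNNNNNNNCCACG, is the known promoter site for the unfolded protein response. It was searched on both strands of RefSeq promoters (250 bases before to 50 after the gene start, GRCh38.p14). It was found in 25 of 27305 symbols with a promoter (0.0916%), in 15 of 7810 members with one (0.192%), and in 9 of 23 genes of the ER list with one. Windows are shown because most members of the list lay higher together, 5' to 3' on the gene's strand, with the element or its reverse complement in capitals.
HSPA5 chr9:125241371-125241429: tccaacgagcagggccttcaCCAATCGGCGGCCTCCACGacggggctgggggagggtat
HSP90B1 chr12:103930196-103930254: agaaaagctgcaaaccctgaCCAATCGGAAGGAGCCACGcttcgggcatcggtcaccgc
CRELD2 chr22:49918534-49918592: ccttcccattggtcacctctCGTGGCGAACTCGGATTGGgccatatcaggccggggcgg
CALR chr19:12938364-12938422: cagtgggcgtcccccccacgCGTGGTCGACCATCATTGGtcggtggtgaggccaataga
PDIA6 chr2:10812833-10812891: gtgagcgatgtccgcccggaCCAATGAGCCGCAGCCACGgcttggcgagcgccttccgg
XBP1 chr22:28800583-28800641: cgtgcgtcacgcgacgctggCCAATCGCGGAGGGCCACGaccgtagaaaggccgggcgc
CRELD2 shares its window with the divergent neighbour ALG12, a mannosyltransferase of glycan assembly, whose edgeR log2 fold change was 1.06. Of the 15 members with the element, 11 lay higher in both libraries and 3 lower, with a median of 0.56. As 9 of the 15 are genes of the ER list, these counts largely repeat that list's result and are no separate support. XBP1 and SERP1 carry it as well and lay lower. SERP1 shares its element with the divergent neighbour EIF2A, which lay higher in both libraries. A match describes the letters only and names no factor at work.

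**Figure D3:**
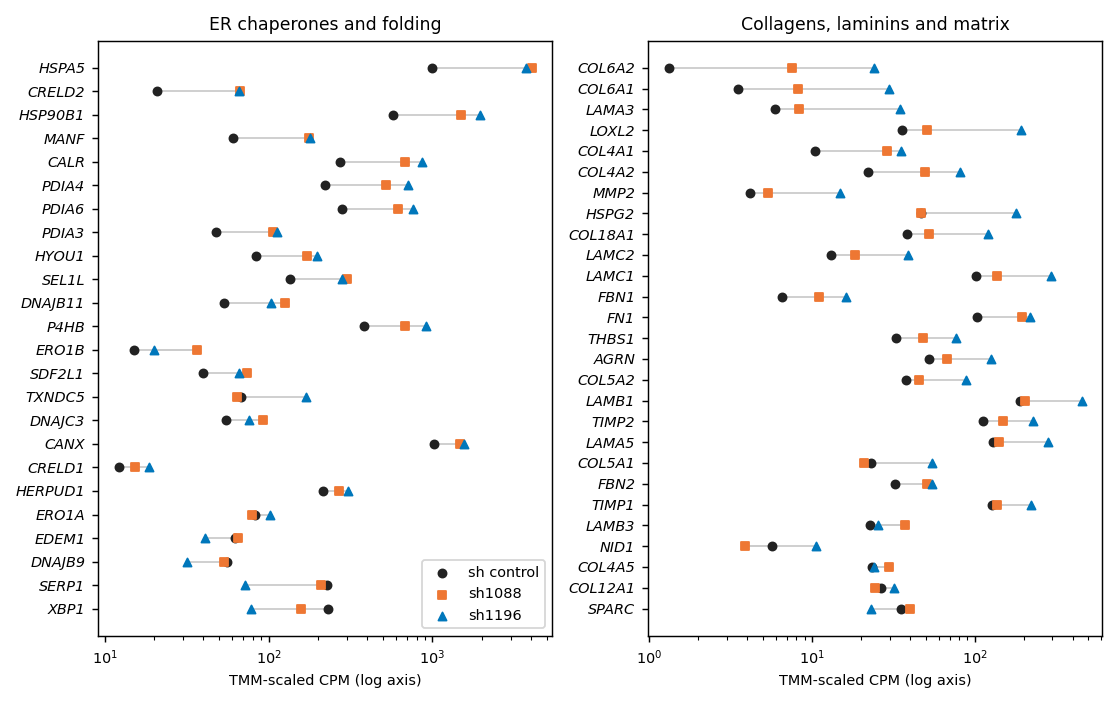
TMM-scaled CPM (log axis) of the measured members of the ER chaperone list (left) and of the collagen, laminin and matrix list (right) in the sh control (black circles), sh1088 (orange squares) and sh1196 (blue triangles). For most ER genes, HSPA5 among them at 992, 4041 and 3722 CPM, both hairpin libraries lie above the control and close together, while for matrix genes such as COL6A2, at 1.31, 7.50 and 24.2 CPM, both lie above it with sh1196 the higher.

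Matrix genes lay higher in both hairpin libraries, with the larger median in sh1196. Of 27 measured collagens, laminins and other matrix genes 22 lay higher in both libraries and 0 lower, with a median of 0.43 in sh1088 and 1.27 in sh1196. COL4A1 and COL4A2, the chains of basement membrane collagen IV, were at 10.49, 28.97 and 35.0 CPM and at 22.2, 49.6 and 81.3. LOXL2, which crosslinks collagen, was at 35.6, 50.7 and 192 CPM, so sh1196 stood apart from the other libraries. Relative to the pCDH control the list median was -1.38 and -0.18, and only 4 members were higher in both. THY1, the measured fibroblast marker, was at 2.403, 4.78 and 34.6 CPM in the same libraries, and its part in the matrix values was not tested. Integrins and focal adhesion genes split by hairpin, at -0.06 in sh1088 and 0.96 in sh1196.

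Of 10 measured ligands, receptors and sheddases of the EGF receptor system 7 lay higher in both libraries and 0 lower. AREG, a ligand, was at 47.1, 145 and 122.6 CPM, and ADAM17, the protease that releases such ligands, at 42.8, 73.3 and 114. EGFR itself was at 162, 191 and 370 CPM. ERRFI1, a feedback inhibitor of the receptor, was at 103, 106 and 41.8, with opposite signs. In the list of the insulin-like growth factor axis, which also holds the RNA-binding IGF2BP genes, 7 of 14 lay higher and 2 lower. IGFBP2 was at 6.01, 18.3 and 27.5 CPM, and IGFBP1 was high in sh1088 alone, at 41.4, 225 and 57.0. IRS1 and IRS2, the adaptors, were the members that lay lower. Relative to the pCDH control the insulin-like growth factor list turned, at medians of -0.86 and -0.47 with 3 higher and 10 lower. The EGF receptor list had 3 of 10 higher and 2 lower against that control, at medians of 0.03 and 0.48.

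All 10 measured genes of MHC class I antigen presentation lay higher in both libraries, with a median of 0.63 in sh1088 and 0.79 in sh1196. HLA-B was at 1.97, 10.0 and 11.9 CPM, HLA-C at 8.74, 17.2 and 17.1 and HLA-F at 2.08, 7.78 and 6.45. ERAP1, which trims peptides for these molecules, was at 24.7, 39.7 and 41.4 CPM. B2M, their common light chain, was at 213, 317 and 220, so sh1196 differed little from the control. HLA genes are near copies of each other and reads can be split between them, which makes each single value uncertain. Relative to the pCDH control the list median was -0.995 and -0.54, with 3 members higher and 7 lower.

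Genes of the cell cycle lay higher in both libraries, more in sh1196. Of 34 mitosis genes 29 lay higher and 0 lower, with a median of 0.29 in sh1088 and 1.01 in sh1196. The checkpoint kinase gene BUB1 was at 10.49, 19.4 and 46.0 CPM, the spindle protein gene NUSAP1 at 19.2, 43.8 and 48.0 and MAD2L1, of the spindle checkpoint, at 13.0, 28.6 and 24.7. Of 31 measured DNA replication genes 22 lay higher and 1, GINS3, lower, with medians of 0.30 and 1.05. MCM6, of the replicative helicase, was at 11.5, 18.6 and 62.7 CPM, and CDT1, which loads that helicase, at 4.26, 10.7 and 18.9. DNA repair genes had 15 of 24 higher and 3 lower, with FANCD2 at 8.74, 13.8 and 34.1 CPM. Relative to the pCDH control the mitosis and replication medians were of opposite sign in the hairpins, at -0.35 and 0.41 and at -0.54 and 0.29.

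Lysosomal genes had 29 of 40 higher and 5 lower, with a median of 0.21 in sh1088 and 0.52 in sh1196. NPC1, which exports cholesterol from lysosomes, was at 25.7, 47.6 and 146 CPM, and the protease gene CTSL at 126, 273 and 407. Cholesterol synthesis had 14 of 21 higher and 4 lower. SREBF2, the transcription factor of that pathway, was at 32.8, 18.4 and 30.1 CPM and so lower in both. Both list medians were below 0 against the pCDH control, at -0.51 and -0.21 for lysosome and -0.42 and -0.22 for cholesterol.

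Among the groups that lay lower, the small ribosomal subunit was uniform. Of 30 measured members 28 lay lower in both libraries and 1, RPS3, higher, with a median of -0.47 in sh1088 and -0.64 in sh1196. The edgeR list median was -0.53, or 0.00132 with library size scaling. That scaling put the median of all members at 0.60, so list medians with it, here and below, are to be read against 0.60. Lists that lay higher rose as well, ER chaperones to 1.54 and mitosis to 1.34. RPS20 was at 575, 285 and 170 CPM and RPS16 at 1123, 693 and 471. The large subunit had 33 of 46 lower and 5 higher (median -0.27, or 0.27 with library size scaling), and its stalk protein RPLP1 was at 860, 478 and 271 CPM. Of 80 nuclear subunits of the respiratory chain and ATP synthase 44 lay lower and 13 higher (median -0.26, or 0.24 with library size scaling), with ATP5F1E, a short subunit of the synthase, at 226, 96.8 and 34.8. Ribosomal proteins have many near-identical pseudogene copies, so their counts may be split. With the pCDH control the small subunit stood at 0.62 and 0.42, the large subunit at 0.42 and 0.17 and the respiratory chain at 0.63 and 0.33, the opposite direction.

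Targets of ATF4, the transcription factor of amino acid and ER stress, had 13 of 22 members lower in both libraries and 2 higher. The median was -0.35 in sh1088 and -0.56 in sh1196. By edgeR it was -0.44, or 0.12 with library size scaling, which put all members at 0.60. ASNS, which makes asparagine, was at 175, 102 and 83.9 CPM, PSAT1, of serine synthesis, at 145, 87.8 and 82.5 and ALDH1L2, a mitochondrial folate enzyme, at 46.0, 22.5 and 14.6. The factor's own gene ATF4 was at 271, 227 and 115 CPM. The 2 genes higher in both were ATF3 (12.2, 35.8 and 17.0 CPM) and SESN2 (18.6, 20.2 and 22.6 CPM). With the pCDH control the list stood at 0.87 and 0.58, and ASNS at 3.37 and 3.09.

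Smaller groups lay lower as well. Of 10 polyamine genes 8 lay lower and 0 higher (median -0.56, or -0.06 with library size scaling, against 0.60 over all members). By edgeR log2 fold change AMD1, SMS and SRM lay above the control with that scaling, AMD1 through sh1196 alone. Among the lower were OAZ2, an antizyme that triggers breakdown of ornithine decarboxylase, at 104, 59.4 and 31.1 CPM, and ODC1, that enzyme, at 87.1, 60.8 and 43.4. Relative to the pCDH control the polyamine list turned, at medians of 0.76 and 0.13 with 5 higher and 1 lower. Of 39 Rab GTPases 23 lay lower and 6 higher (median -0.38, or 0.12 with library size scaling), with RAB27B, a factor of vesicle secretion, at 99.6, 36.6 and 24.2 CPM. Relative to the pCDH control 18 of the 39 Rab genes lay higher and 12 lower, where 3964 and 3949 of 10240 genes did. The epithelial keratin KRT8 was at 977, 588 and 356 CPM. Of 7 measured lung lineage genes 4 lay lower and 1 higher, and the airway mucins MUC5AC and MUC5B were at 122, 92.2 and 8.18 and at 199, 131 and 10.54. There sh1196 was far below the other libraries. The same held for CPLX2, a regulator of vesicle fusion, at 2119, 1278 and 116 CPM, and for the interferon-induced genes IFI27 (12.9, 11.2 and 0.485 CPM) and ISG20 (14.9, 11.7 and 1.32 CPM). The interferon response list had medians of 0.17 in sh1088 and -0.98 in sh1196, so the hairpins did not share a direction. Of lists not described so far, condensin and cohesin genes had 15 of 20 higher and 2 lower, cytosolic heat shock proteins 11 and 2 of 19, and hypoxia genes 8 and 1 of 14. Mitochondrial ribosomal proteins had 20 of 77 higher and 45 lower, and 52 and 12 relative to the pCDH control. The proteasome (18 higher and 19 lower of 45), glycolysis (6 and 5 of 17) and initiation factors (15 and 21 of 50) were divided.

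**Figure D4:**
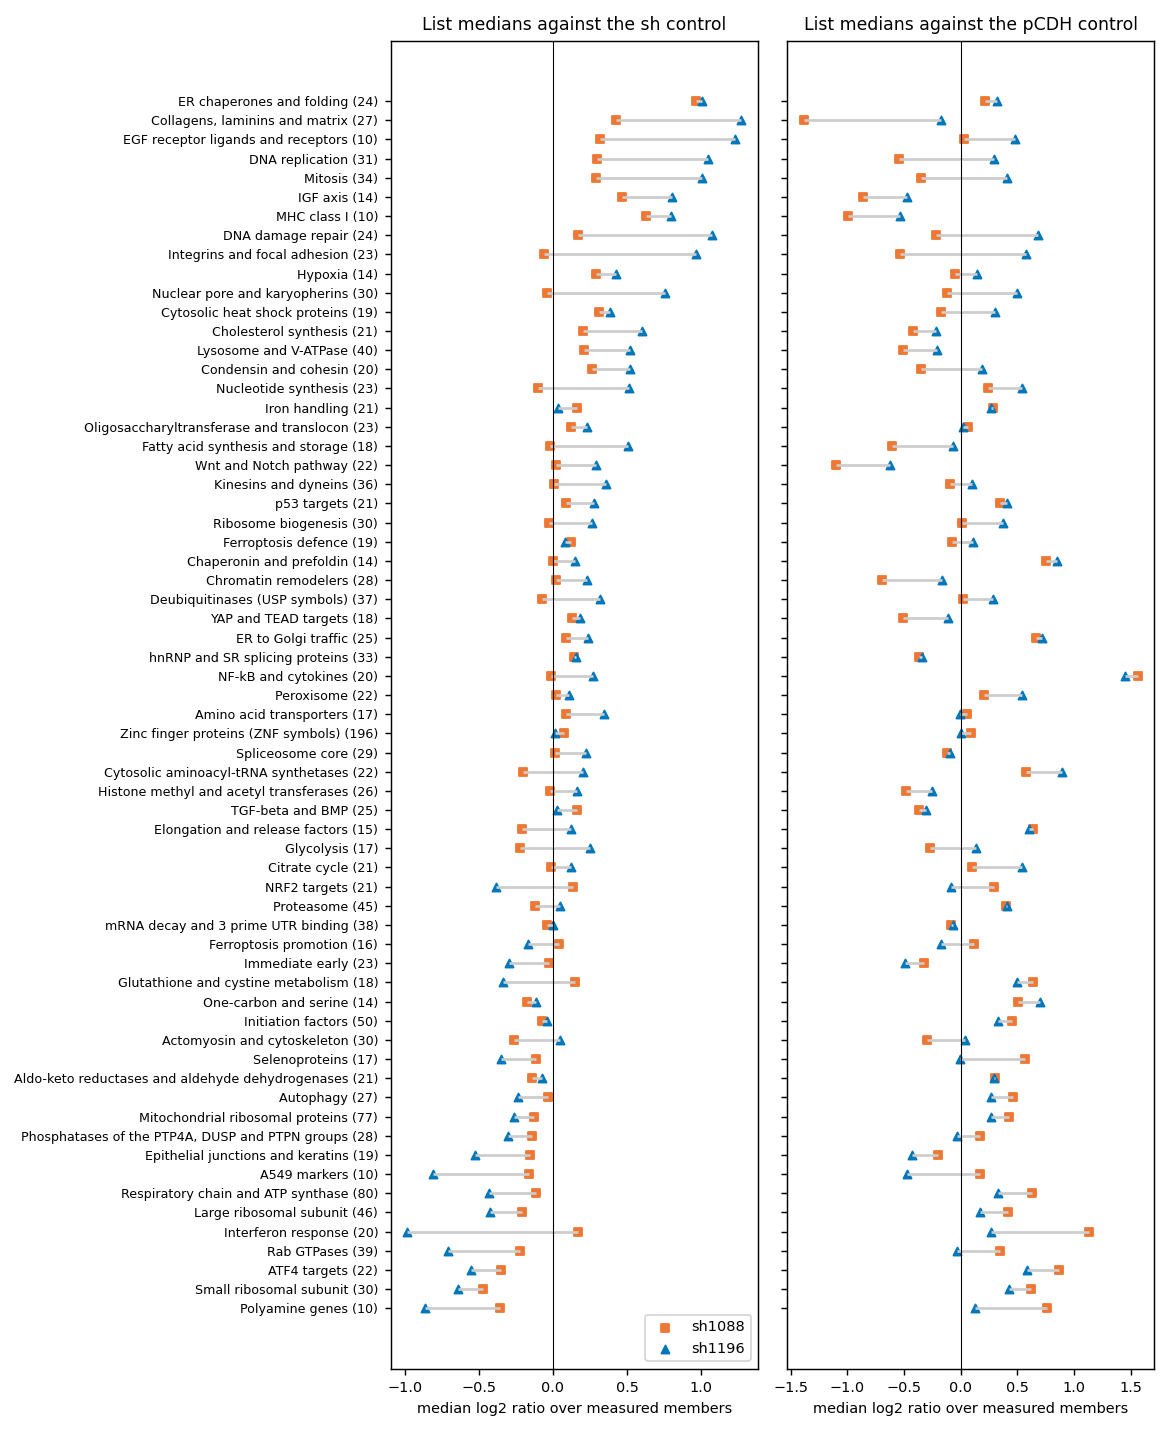
Median log2 ratio over the measured members of each gene list with at least 10 of them (number in brackets), for sh1088 (orange squares) and sh1196 (blue triangles), against the sh control (left) and against the pCDH control (right). ER chaperones lie near 1 in both hairpins on the left and at 0.22 and 0.32 on the right, and the small ribosomal subunit lies at -0.47 and -0.64 on the left and at 0.62 and 0.42 on the right.

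Ratios to the sh control followed coding length in sh1196, and in sh1088 only the shortest genes stood apart. Members with a coding transcript (9692) were divided into 5 equal groups by coding length. In sh1196 the median log2 ratio was -0.54 in the shortest group (78 to 750 nt) and 0.37 in the longest (2550 to 43524 nt), while in sh1088 it was -0.13 and 0.00, with the groups between at 0.00 to 0.02. With the pCDH control as reference sh1088 ran the other way, from 0.48 to -0.27, and sh1196 was flat, at 0.07 and 0.08. In the shortest group 20.2% of genes lay higher in both libraries and 56.9% lower, and in the longest 43.7% and 20.8%. Ribosomal proteins and respiratory chain subunits have short coding regions, with list medians of 459 nt for the small subunit and 446 nt for the respiratory chain, and matrix genes long ones (5010 nt). The part of coding length in the group values above was not tested.

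Genes with many ATATA matches in the 3'UTR lay slightly lower. The 4175 members with 0 matches had a median log2 fold change of 0.08, and the 1302 members with at least 8 had -0.12, with -0.13 in sh1088 and -0.18 in sh1196. Genes with 1 to 7 matches were near those with none, between 0.04 and 0.09. Of the 15 lower genes ranked above 6 held at least 8 matches, and 1 of the 15 higher genes, USP49, did. Over all members 13.4% held that many. The difference between the end groups, -0.20, was 0.36 against the pCDH control and 0.0456 by rescaled TPM. Matches per kb of 3'UTR were 1.73 in genes higher in both libraries, 1.96 in genes lower in both and 1.86 over all members. Genes rich in the motif also have long 3'UTRs (median 3991 nt against 385 nt) and transcripts of lower GC content (median 39.9% against 56.0%). Neither was held fixed, so length and motif cannot be told apart here.

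The gene lengths in the authors' RSEM output, which weight each transcript of a gene by its estimated share, differed between the libraries in the same genes. SLC16A7 had a length of 6100 nt in the control against 2376 and 2092 nt, ZMAT3 6051, 2580 and 2306 nt, and SLC7A11 9531, 7902 and 3784 nt. RBMS1 had 4154, 1822 and 2003 nt, whereas STYX was at 4864 nt and HSPA5 at 3921 nt in each library. The step from counts to TPM divides by this length. SLC16A7 stood at -0.63 and -0.59 by TPM against -2.06 and -2.24 by counts, and STYX at -1.52 and -2.07 against -1.61 and -2.27. Over all members 49.4% had a shorter length in both hairpin libraries and 22.0% a longer one. The median log2 ratio of length was near 0 in the group of 5 with the shortest 3'UTRs (-0.00417 and -0.00144) and -0.15 and -0.38 in that with the longest (2789 to 32870 nt). This measure was added after seeing the data, and its part in the ratios was not tested.

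**Figure D5:**
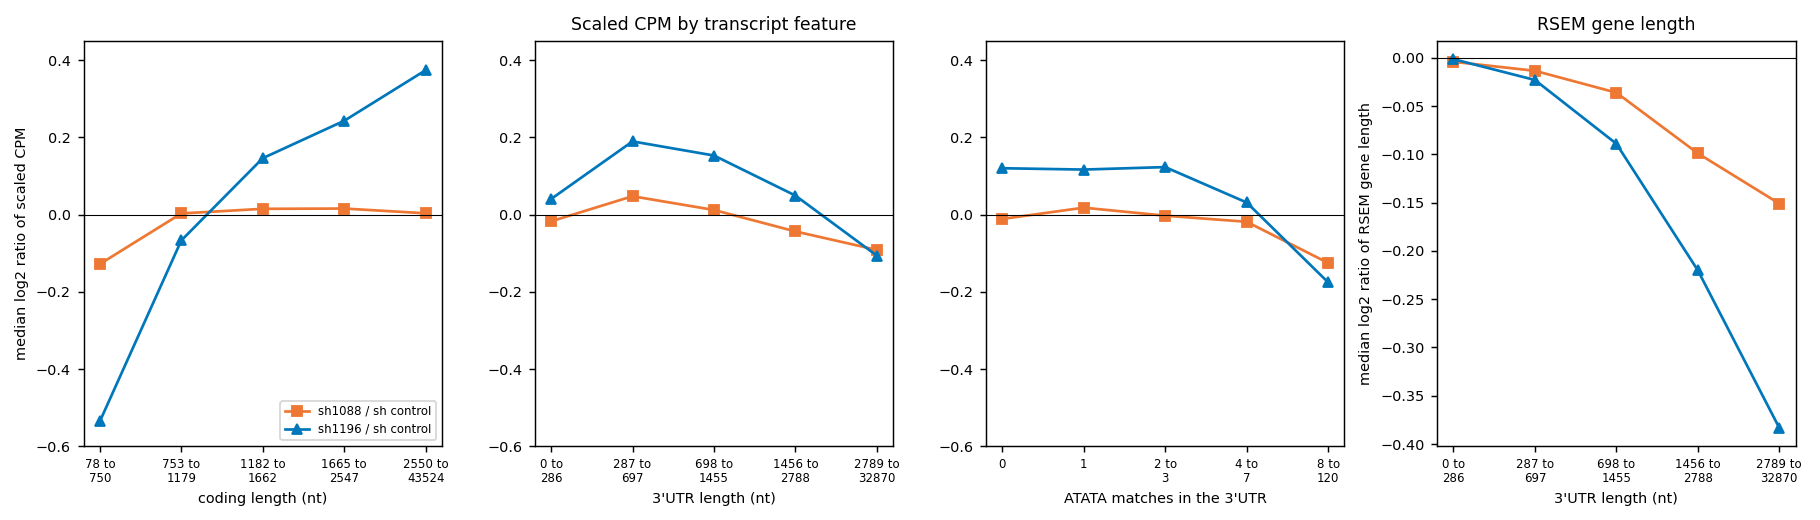
Median log2 ratio of scaled CPM to the sh control by coding length, 3'UTR length and number of ATATA matches (first 3 panels), and of the RSEM gene length by 3'UTR length (right), for sh1088 (orange squares) and sh1196 (blue triangles), each point a group of members. In sh1196 the first panel rises from -0.54 to 0.37, and in the last panel the length ratio falls to -0.38.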

How the data were processed

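Expected counts per gene were made by the authors with RSEM, per the file headers, which also give TPM (scaled by gene length) and the length itself. RSEM 1.3.1, STAR 2.4.2, DESeq2 and Bowtie appear in the submitters' processing notes. No genome build or annotation is given in the sources used here. A comparison table deposited by the authors holds normalised mean signal, log2 fold change and p-values. Counts were rounded and fitted with edgeR 4.0.16 (TMM, filterByExpr, robust quasi-likelihood test, 1 residual degree of freedom) in R 4.3.3. DESeq2 1.42.0 was the alternative. The fit takes the single control to vary as the hairpin libraries do. A p-value therefore rests on the spread between sh1088 and sh1196, which are different hairpins, with dispersion shared across genes. That spread is possibly technical, and no spread between controls was measured. Hairpin ratios use log2 CPM with a prior count of 2, and rescaled TPM a pseudocount of 1. Of the identifiers 58611 matched GENCODE 29 and 318 did not. Counting intervals are exact (Clopper-Pearson) and cover counting error only. Overlap uses whole gene spans.

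The members and the 71 gene lists were chosen with earlier results of these data known. Genes were named by rule: RBMS1, SLC7A11, SLC3A2 and GPX4 always, the 15 a direction with the largest smaller ratio, the 8 most abundant past 1.5-fold, and up to 4 a list, or all of a list of at most 12. Other list members and F2RL2, CA8, TMEM50B, SOX9, IRS2, ELL2, SCNN1A and ALKBH5 were chosen after their values were seen. The edgeR fit was tested on 3 simulated sets of 14358 genes.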

Additional observations from a re-analysis of the deposited data

How the results depend on the processing

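The number of genes called, 0 by edgeR, was 13 with DESeq2, 102 with no filter on low counts, 27 with library size scaling and 93 with the pCDH control. Library size scaling moved the median of the members from 0.05 to 0.60, with 6138 higher in both and 1067 lower, against 3517 and 3372. A mean CPM of at least 20 left 1800 higher and 1838 lower, since fewer genes were counted, and leaving out overlapping genes left 2275 higher. The motif difference of -0.20 was 0.36 with the pCDH control, and 0.0456 by rescaled TPM. It ran from -0.30 to -0.11 when either hairpin was left out. The last 2 were chosen after seeing the data, and the cause was not tested. Of 305 named genes the sign changed for 168 with the pCDH control, 25 with library size scaling and 9 by rescaled TPM. Without sh1088 it changed for 2 and without sh1196 for 7. Of 65 lists it changed for 32, 19, 6, 3 and 17 in the same order. With 1 hairpin left out no residual degrees of freedom remain, so no calls and no counts in both hairpins could be had. No paired analysis was possible because the control is 1 library, so the groups share fewer than 2 replicate numbers.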
